A study of Mus musculus with 9 samples.

Results

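Gene expression after knockdown of Zbtb46 was compared with that of unmodified cells in MCEC, a line of endothelial cells from mouse heart. The comparison used 6 of the 9 RNA-seq libraries of the series, chosen by their labels alone: 3 libraries of cells labelled Zbtb46 knockdown (KD) and 3 of cells with the genotype label WT. The other 3 libraries came from cells made to overexpress Zbtb46 (OE). They entered the filter that chose the genes tested, the scaling and the estimate of the spread between libraries, but not the contrast of KD with WT. No agent, dose or time is given for any group, and both groups share the parental line. The labels name neither the means of knockdown nor whether KD is 1 clone or a pool, and no library of cells given a control vector was analysed here, so the knockdown cannot be told apart from the handling that produced the KD cells. The labels also do not say whether the 3 libraries of a group came from separate cultures. P values therefore measure the spread between these libraries, which may be technical.

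Zbtb46 encodes a transcription factor that binds DNA through zinc fingers and carries a BTB domain, a protein interaction surface found in many transcriptional repressors. It is best known as a marker of classical dendritic cells and is also expressed in endothelium. The gene groups described here span the work of an endothelial cell: folding of secreted proteins in the endoplasmic reticulum (ER), signals that recruit leukocytes, guidance and growth factor receptors, the matrix the cell rests on, and the metabolism and division that support these.

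Total counts ran from 40447710 to 49408414 in KD and from 39491828 to 55745849 in WT. Ribosomal RNA took 9.55% to 12.0% of the counts in KD and 7.44% to 17.3% in WT, so the groups overlapped in this measure. WT libraries varied more among themselves: beyond what counting error gives, replicates had a coefficient of variation of 10.1% for WT but 3.81% for KD. On the first principal component of the 6 libraries, with 49.31% of the variance, KD lay at -36.8 to -31.2 and WT at 28.2 to 37.6, while the second component, with 14.53%, spread the WT libraries from -27.2 to 33.5. WT replicate 2 was the deepest library and had the lowest share of ribosomal RNA, and of the single libraries it gave the most calls when left out. Where leaving out a library moves a list's count of 5 or more by over 1.5 times, the count without it is given beside the result.

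The targeted gene was checked first. Zbtb46 (ENSMUSG00000027583, chromosome 2, 181387762 to 181459426 on the minus strand of GRCm38) stood at 13.3, 14.4 and 13.2 CPM in the WT libraries and at 11.7, 11.4 and 10.7 CPM in the KD libraries, where CPM is the count of a gene relative to library size, with libraries scaled by TMM factors. The groups did not overlap, and the KD mean lay 17.6% below the WT mean. On the log2 scale Zbtb46 mRNA fell by 0.28 (SE 0.055, edgeR adjusted p = 0.00144), and by 0.24 without WT replicate 2. Zbtb46 protein was not measured. At the level of mRNA the difference was thus small.

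The label of the cells was compared with marker genes. Of 13 endothelial markers, Kdr, Flt1, Tek, Esam and Egfl7 reached the level needed for testing. The other 8 did not: Erg and Cldn5 had 0 counts in all 6 libraries, Cdh5 and Emcn at most 2, Pecam1 at most 5, Robo4 and Vwf at most 6, and Tie1 at most 9. The label endothelial therefore rests here on a part of the usual markers. A wider list of 28 endothelial identity genes had 13 tested, of which 2 rose and 6 fell in KD. The falls make up 46.2%, against 10.4% of all genes. Leukocyte, cardiomyocyte, and fibroblast and pericyte markers were sparse as well, with 4 of 13, 5 of 15 and 4 of 13 genes tested. In the smooth muscle list 12 of 16 genes were tested, and in the epithelial list 5 of 11. The endothelial identity list summed to 351.4 to 361.6 CPM in WT and 306.2 to 319.3 CPM in KD, less than either. The summed level of the leukocyte list was 6.88 to 7.76 CPM in WT and 7.46 to 8.34 CPM in KD, and that of the fibroblast and pericyte list 149.1 to 155.5 CPM in WT and 148.9 to 155.6 CPM in KD, so both overlapped between groups. The sum of the epithelial list was 493.1 to 598.1 CPM in WT and 470.1 to 491.0 CPM in KD; of its 5 tested members Krt19 alone was called, at 501.7 ± 52.8 CPM in WT and 447.4 ± 11.7 CPM in KD, a call that is lost under some settings, and 2 members lay above 0. The smooth muscle list summed to 1837 to 1929 CPM in WT and 2315 to 2376 CPM in KD, mostly through Tpm1 (mean 915.1 CPM in WT and 1179 CPM in KD) and Cald1 (mean 672.7 CPM in WT and 859.0 CPM in KD). Of its 12 tested members 4 rose and 3 fell, with a median of -0.011, and the defining marker Acta2 fell by 1.47 on the log2 scale. The sum of the cardiomyocyte list was 2.72 to 3.58 CPM in WT and 9.46 to 10.2 CPM in KD. This rise came from 1 gene, the cardiac actin Actc1, at 0 CPM in WT and a mean of 7.2 CPM in KD. Of the 5 tested members 1 rose, Actc1, and 1 fell, with a median of -0.16. The part of these lists in the results was not tested, and in bulk RNA fewer cells of a type and less RNA per cell cannot be told apart.

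Among the endothelial genes that were expressed, Cd34, a surface sialomucin of endothelial and progenitor cells, stood at 123.4, 120.0 and 121.7 CPM in WT and at 83.4, 84.4 and 89.4 CPM in KD. All KD libraries lay below all WT libraries (log2 change -0.51, SE 0.033, edgeR adjusted p = 4.01e-08). Flt1, a receptor for VEGF, went from 17.3, 17.3 and 17.0 CPM to 11.9, 11.2 and 13.2 CPM (-0.51, SE 0.067). Egfl7, a secreted vascular protein, fell from 5.18 ± 0.459 to 2.99 ± 0.360 CPM (mean ± SD, n = 3, as throughout), and Kdr, the main signalling receptor for VEGF, from 2.64 ± 0.252 to 1.40 ± 0.254 CPM. Ecscr, a small endothelial membrane protein, fell by 1.65 on the log2 scale (SE 0.049), and Eng, a coreceptor for TGF-beta ligands, by 0.20 (SE 0.051). Ptprb, the vascular endothelial protein phosphatase, moved the other way and rose by 0.82 (SE 0.090), as did the transcription factor Ets1 by 0.19 (SE 0.059). The rise of Ets1 is lost under some of the other settings tried. The median over the 13 tested genes was -0.36, and -0.22 without WT replicate 2. Over all genes tested it was -0.0022.

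Across all genes, 16955 were tested and 3617 differed at an adjusted p under 0.05, which is 21.3% of them: 11.0% were higher in KD and 10.4% lower. These adjusted p values come from the quasi-likelihood F test of edgeR, corrected by the Benjamini-Hochberg method over all genes tested. Without WT replicate 2 the shares were 27.1%, 14.7% and 12.4%. For 34.7% of the genes the KD libraries lay wholly above or wholly below the WT libraries. Most differences were small. Of the genes called, 35.89% changed by less than 0.25 on the log2 scale and 37.46% by 0.25 to 0.5. Larger changes went mostly down: 45 genes rose and 212 fell by 1 to 2 on the log2 scale, and 47 rose and 143 fell by 2 or more.

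The direction of change moved with the level of expression. Among 4061 genes under 1 CPM, 1.16% rose and 5.27% fell. The share that rose climbed with each step in level, to 3.04% at 1 to 5 CPM, 7.51% at 5 to 20 CPM, 17.6% at 20 to 100 CPM and 28.6% among the 2154 genes at 100 CPM or more. The share that fell stayed between 10.9% and 12.4% in the 4 classes above 1 CPM. A list of strongly expressed genes thus has a background of 28.6% higher and 11.8% lower, not 11.0% and 10.4%, and the lists are read against both. With library totals alone in place of TMM factors the median of all genes moved by less than 0.1 on the log2 scale, to -0.038, yet the genes called higher dropped from 1859 to 885. By annotated class, 27.5% of protein-coding genes were called against 2.65% of processed pseudogenes, and 16 of 384 tested lincRNA genes rose and 8 fell.

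**Figure D1:**
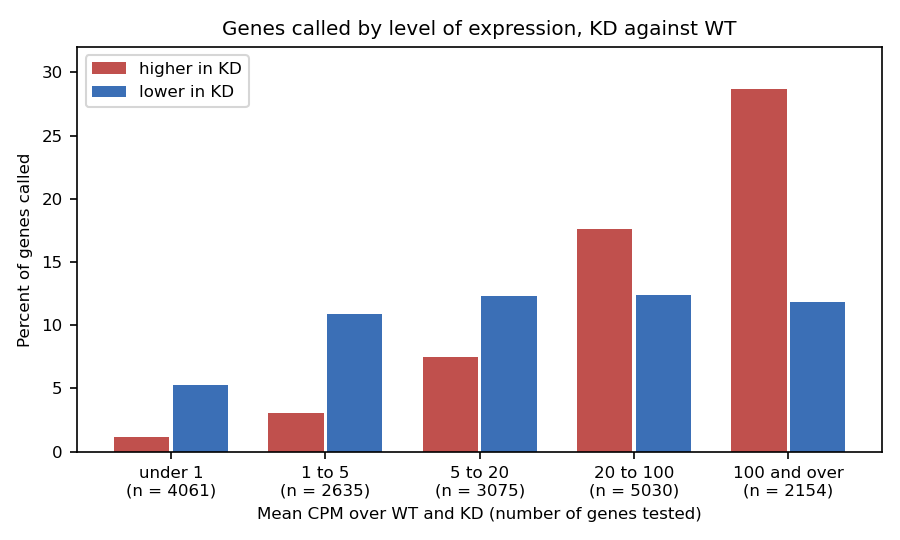
Percent of genes called higher (red) or lower (blue) in KD than in WT (y axis) in 5 classes of mean CPM over the 6 libraries (x axis, number of genes tested under each class). The share called higher climbs from 1.16% under 1 CPM to 28.6% at 100 CPM and over, while the share called lower stays between 10.9% and 12.4% above 1 CPM.

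Genes were next described by 67 lists of pathways and families. Members named beyond those picked by the rule for named genes were chosen after their values were seen. Among the lists, that with the highest share of rises held ER chaperones and the unfolded protein response. This response is set off when unfolded proteins gather in the ER: the sensors PERK (Eif2ak3), IRE1 (Ern1) and ATF6 (Atf6) raise chaperones, disulfide enzymes and the machinery that removes misfolded proteins. Of the 38 members, all tested, 30 rose, 0 fell and 8 were not called, with a median log2 change of 0.38. The share that rose was 79.0%, against 11.0% of all genes and 28.6% of genes at 100 CPM or more. Without WT replicate 2, 32 rose and 0 fell, and with any other single library left out 27 to 30 rose. With library totals alone it was 26.

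Among the chaperones, Hspa5 (BiP), the Hsp70 chaperone of the ER (chromosome 2, 34771970 to 34777547), stood at 1280, 1286 and 1207 CPM in WT and at 2105, 2263 and 2238 CPM in KD. The lowest KD library lay far above the highest WT library, and the KD mean was 1.75 times the WT mean (log2 change 0.81, SE 0.044, edgeR adjusted p = 5.51e-12). Hspa5 had the largest gain in CPM of the genes named by the rule, and Calr the next. Calr (calreticulin), a lectin chaperone for glycoproteins, went from 1450, 1397 and 1467 CPM to 2166, 2265 and 2271 CPM (0.64, SE 0.031). Hsp90b1 (GRP94), the Hsp90 of the ER, went from 505.0, 520.4 and 457.3 CPM to 765.7, 806.8 and 804.2 CPM (0.68, SE 0.061). Hyou1, the exchange factor of Hspa5, rose by 0.73 (SE 0.038), and Canx, the membrane-bound partner of calreticulin, by 0.37 (SE 0.049).

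The 2 largest ratios of the list belonged to cofactors. Sdf2l1, an ER protein that works with Hspa5, went from 37.6, 33.5 and 38.4 CPM in WT to 68.4, 74.2 and 73.0 CPM in KD, 1.97 times the WT mean. Ero1lb, which reoxidises protein disulfide isomerases (chromosome 13, 12565874 to 12611396), went from 8.25, 10.4 and 8.64 CPM to 17.6, 21.3 and 21.98 CPM, 2.22 times the WT mean. Neither gene overlapped between the groups. Dnajc3, an Hsp40 cochaperone, rose by 0.83 (SE 0.057), and Manf and Creld2 rose from 85.4 to 145 CPM and from 87.5 to 147 CPM. Among disulfide isomerases, Pdia6 rose by 0.67 (SE 0.030) and Pdia4 by 0.62, whereas Pdia3 stood at 686.8 ± 36.5 CPM in WT and 708.1 ± 21.5 CPM in KD and was not called (edgeR adjusted p = 0.558).

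Members with a part in ER-associated degradation, which exports misfolded proteins for destruction, have no count of their own. Among them Herpud1 rose from 84.7, 77.9 and 80.2 CPM to 143.1, 144.4 and 144.7 CPM (log2 change 0.83, SE 0.036), Edem1 by 0.66, Sel1l by 0.57, Derl2 by 0.37 and Syvn1 by 0.35, while Derl3 was not called (edgeR adjusted p = 0.898). Of the sensors and their targets, Xbp1, the mRNA that IRE1 splices, went from 97.0 ± 6.26 to 132.4 ± 3.03 CPM (0.45, SE 0.057), Eif2ak3 rose by 0.29 and Atf6 by 0.17, and Ern1 was not called, at 75.3 ± 4.61 CPM in WT and 77.3 ± 2.51 CPM in KD. Splicing of Xbp1 cannot be read from counts per gene. Of the 31 members that lie outside chromosomes 4, 9 and 13, whose median levels shifted in KD (described further on), 25 rose and 0 fell.

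**Figure D2:**
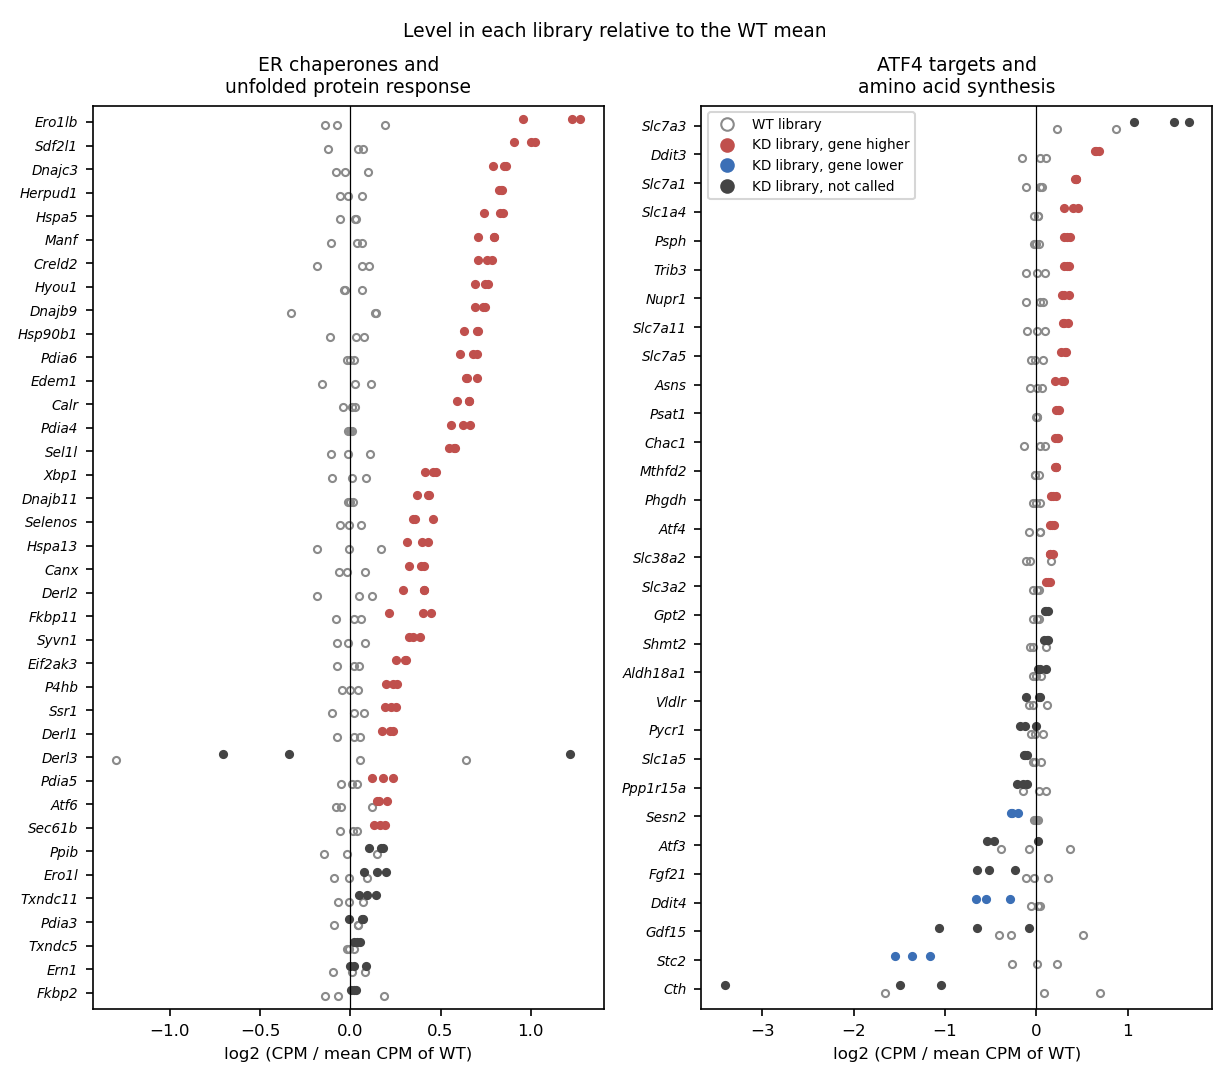
Level of each tested member of the ER chaperone and unfolded protein response list (left) and of the ATF4 and amino acid list (right) in every library, as the log2 ratio to the WT mean (x axis), with open circles for WT libraries and filled circles for KD libraries (red, gene higher; blue, gene lower; black, not called). In the left panel the KD libraries of 30 of 38 genes are red and none is blue. A library at 0 counts is not drawn, which leaves 1 WT library out for Slc7a3.

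Promoters of these genes were searched for the ER stress response element, a sequence known to be bound by NF-Y and ATF6, as CCAAT and CCACG with 9 bases of any kind between them, on either strand, in RefSeq windows (build GRCm38.p6) from 250 bases before to 50 bases after the start. The windows show where the search matched in 8 members that rose and in Derl3, which was not called, with the match in capitals and written 5′ to 3′ on the gene's own strand; in some genes it lies in reverse complement. For Hspa5 the match lies inside an exon of the GENCODE annotation, so only 29 bases are shown.
Hspa5, chr2:34772020-34772048, plus strand: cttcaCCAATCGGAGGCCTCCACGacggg
Pdia6, chr12:17266471-17266529, plus strand: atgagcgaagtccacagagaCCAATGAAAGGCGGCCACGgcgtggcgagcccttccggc
Dnajc3, chr14:118937807-118937865, plus strand: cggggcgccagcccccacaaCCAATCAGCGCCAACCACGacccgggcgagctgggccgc
Syvn1, chr19:6046512-6046570, plus strand: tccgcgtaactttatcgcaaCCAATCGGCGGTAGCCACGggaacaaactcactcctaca
Hsp90b1, chr10:86705513-86705571, minus strand, reverse complement: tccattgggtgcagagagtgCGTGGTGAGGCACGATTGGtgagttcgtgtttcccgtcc
Calr, chr8:84847055-84847113, minus strand, reverse complement: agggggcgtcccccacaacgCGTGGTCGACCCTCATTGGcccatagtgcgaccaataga
Ero1b (Ero1lb), chr13:12565662-12565720, plus strand, reverse complement: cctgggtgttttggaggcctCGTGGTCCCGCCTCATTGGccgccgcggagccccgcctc
Creld2, chr15:88819500-88819558, plus strand, reverse complement: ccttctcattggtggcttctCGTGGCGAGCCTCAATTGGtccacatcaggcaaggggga
Derl3, chr10:75893222-75893280, plus strand, reverse complement: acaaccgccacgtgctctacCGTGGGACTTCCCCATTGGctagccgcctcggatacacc

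Of the 30 members that rose, 25 had a promoter in the RefSeq table and 9 of these held the element, which is 36%. Among the 8 tested members that were not called higher, 1 did, Derl3, whose level stayed under 0.2 CPM in both groups. Over all tested genes with a promoter it was found in 20 of 10646, or 0.188%, and over all promoter windows in 0.119%. Taken from the sequence side, 11 of these 20 genes rose, 1 fell and 8 were not called, while 13.7% of all tested genes with a promoter rose. The 11 include the 9 list members just counted, so this is not a separate result. Of the 10 that are not members of the list, 2 rose (20%, against the 13.7%) and 1 fell. Alg12, a mannosyltransferase of the ER, rose by 0.23 (SE 0.051) and Zfp57, a zinc finger factor that guards imprints, by 0.40 (SE 0.099). Adcy3, an adenylyl cyclase, fell from 9.98 ± 1.20 to 1.95 ± 0.0951 CPM (log2 change -2.36, SE 0.10). These 3 genes were named after their values were seen. List members were chosen as known genes of this response, so their excess of its element over all genes tests nothing. A match describes letters in a window and is no measurement of binding.

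The integrated stress response, run by the transcription factor ATF4, supplies amino acids and tRNA charging when translation is slowed, and PERK is among the kinases that start it. Of 31 tested members of the ATF4 and amino acid list, 16 rose and 3 fell, with a median of 0.16. The share that rose was 51.6%, against 11.0% of all genes and 28.6% of genes at 100 CPM or more. With library totals alone 10 rose. Ddit3 (CHOP), a transcription factor of ER stress, went from 7.67, 8.02 and 6.67 CPM in WT to 11.7, 11.7 and 11.9 CPM in KD (log2 change 0.66, SE 0.080, edgeR adjusted p = 4.27e-05). Slc7a1, the carrier of cationic amino acids, went from 375.4, 418.2 and 424.8 CPM to 545.9, 549.3 and 548.4 CPM (0.43, SE 0.056). Both genes separated the groups fully. Smaller rises were found for Slc1a4 (0.39), Psph (0.34) and Psat1 (0.23) of serine supply and synthesis, Asns (0.26), which makes asparagine, and Atf4 itself (0.17, SE 0.043). The 3 members that fell were Stc2, Ddit4 and Sesn2. Ddit4 and Sesn2, which are known to restrain mTORC1, went from 14.7 ± 0.507 to 10.5 ± 1.44 CPM and from 24.5 ± 0.365 to 20.7 ± 0.641 CPM.

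The ATF4 site TGATGNAA, searched in the same windows on both strands, gave less of a contrast. It was present in 6 of the 15 risen members with a promoter (40.0%), in 4 of 12 others (33.3%) and in 2.72% of all tested genes with a promoter. Of the 290 tested genes that hold it, 17.6% rose, against 13.7% of all those with a promoter. Since list members include known ATF4 targets, their excess over all genes tests nothing. Outside the list 280 tested genes held the site, of which 16.1% rose and 12.5% fell, against 13.7% and 12.4%. Slc7a11, the cystine carrier, holds it in both directions within 2 overlapping windows, and Pycr1, an enzyme of proline synthesis that was not called (log2 change -0.10), holds it as well.
Slc7a11, chr3:50443652-50443699, minus strand: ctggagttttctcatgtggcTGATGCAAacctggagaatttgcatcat
Slc7a11, chr3:50443633-50443680, minus strand, reverse complement: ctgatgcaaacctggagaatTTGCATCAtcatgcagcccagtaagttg
Pycr1, chr11:120643824-120643871, minus strand: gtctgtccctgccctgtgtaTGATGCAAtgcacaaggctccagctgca

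Other lists tied to protein production moved by small amounts. Of 40 ribosome biogenesis genes 14 rose and 2 fell (median 0.11), among them Wdr75 (0.33) and Nop58 (0.32), but 3 rose with library totals alone and 8 without KD replicate 2. Of 19 tested tRNA synthetases 6 rose and 1 fell, the alanine enzyme Aars (log2 change -0.23, SE 0.030); with library totals alone 1 rose, and without KD replicate 3, 3 did. Of 22 genes in the list of cytosolic heat shock proteins, which also holds a mitochondrial chaperonin, 10 rose and 3 fell. Hspd1, the chaperonin of mitochondria, went from 771.7 ± 45.1 to 943.3 ± 6.63 CPM, and Chordc1, a cochaperone of Hsp90, rose by 0.34, whereas Hspb1, a small heat shock protein, fell from 19.01 ± 0.368 to 11.95 ± 1.77 CPM. The count of 10 fell to between 3 and 6 with library totals alone, with upper-quartile factors, in a fit of only the 6 libraries, without OE replicate 1 and without any single KD library. The shares called higher in these 3 lists, 35.0%, 31.6% and 45.5%, lie near or above the 28.6% of genes at 100 CPM or more.

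**Figure D3:**
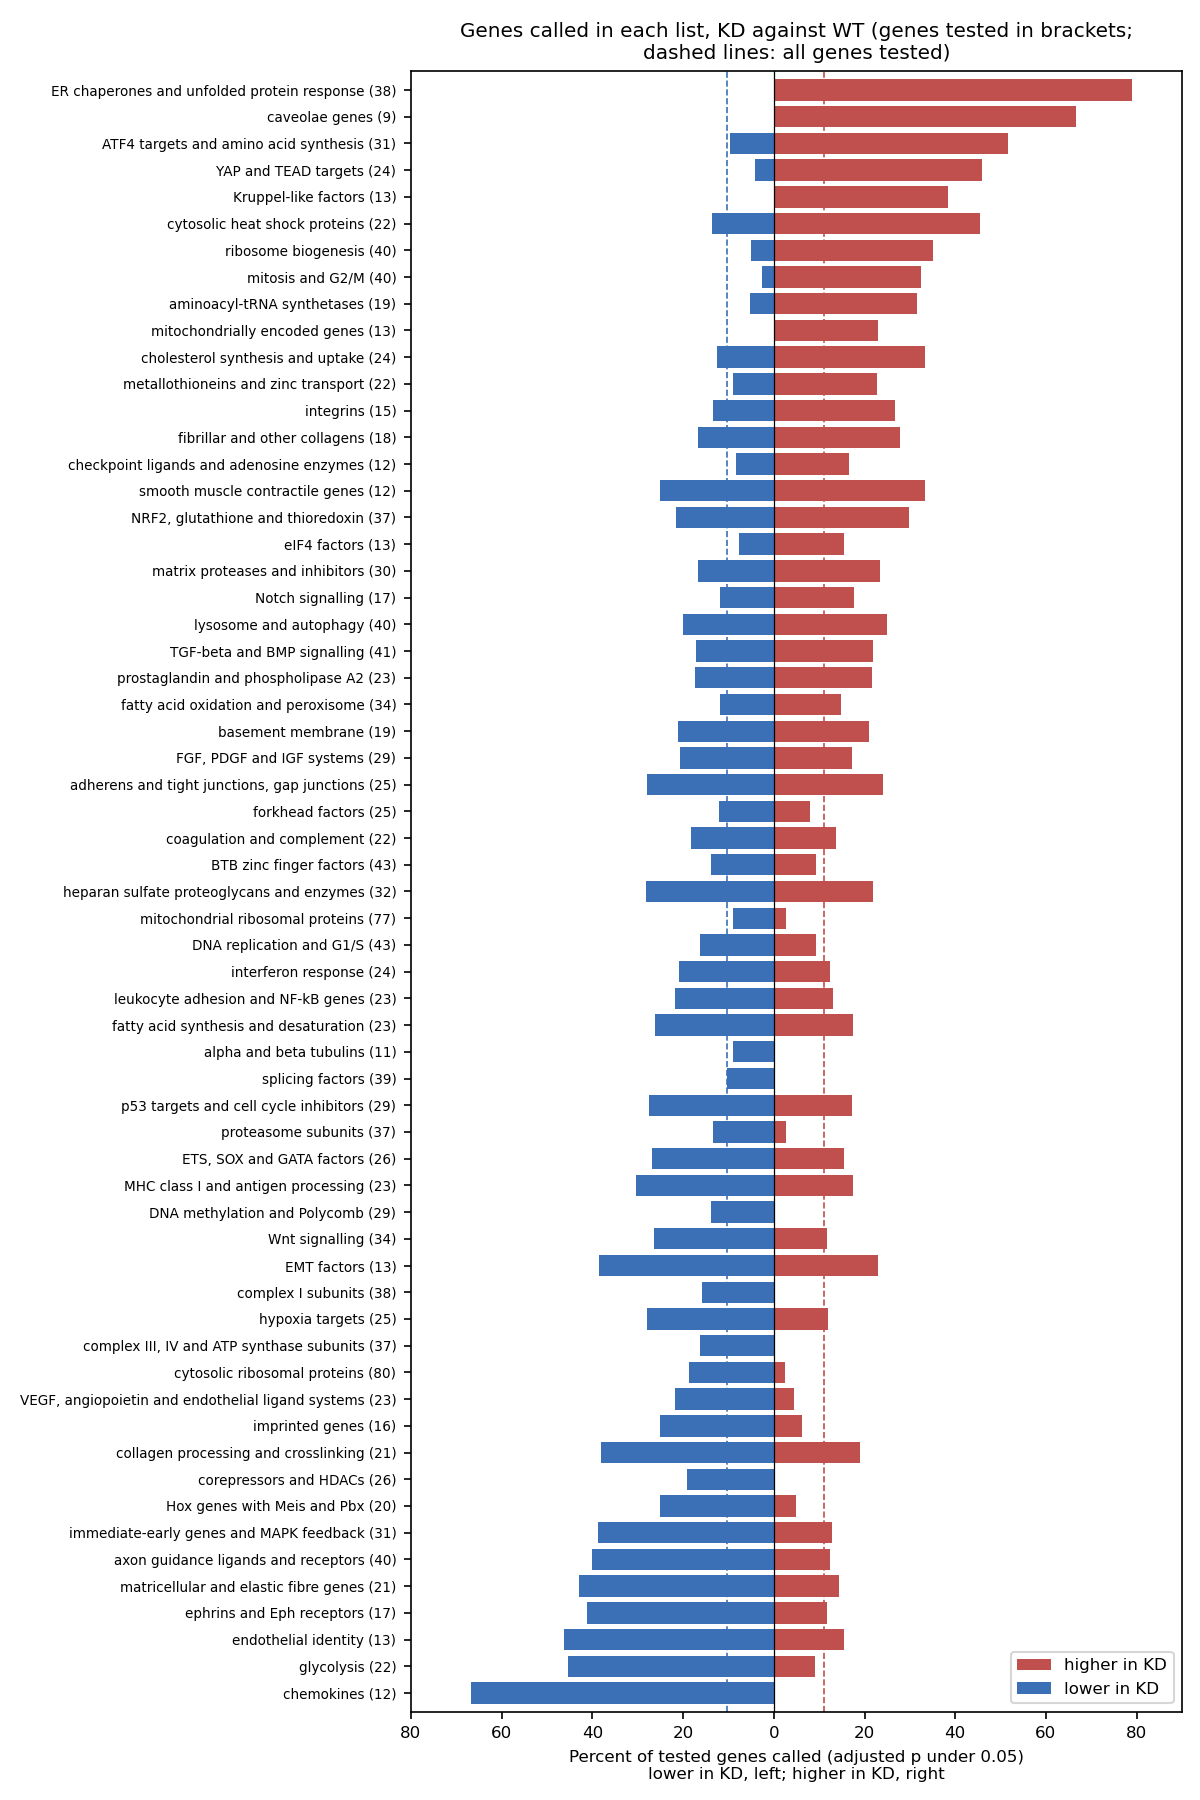
Percent of the tested genes (number in brackets) of each list with at least 9 tested members called lower in KD (blue, to the left of 0) or higher in KD (red, to the right of 0), with dashed lines at 10.4% and 11.0%, the shares over all genes tested. Lists are ordered by the difference of the shares. ER chaperones (30 of 38) and caveolae genes (6 of 9) stand at the top, glycolysis (10 of 22 lower) and chemokines (8 of 12 lower) at the bottom.

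Chemokines, the secreted proteins that draw leukocytes to a tissue, went the other way. Of 12 tested, 0 rose and 8 fell, with a median of -0.74, and 8 fell without WT replicate 2 also. The share that fell, 66.7%, compares with 10.4% of all genes and with 12.4% at most in any class of expression level. Cxcl12, the ligand of CXCR4 that holds stem cells and lymphocytes in place (chromosome 6, 117168535 to 117181367), stood at 31.4, 32.9 and 31.7 CPM in WT and at 12.9, 10.1 and 11.8 CPM in KD. Its KD libraries were below 13 CPM and its WT libraries above 31 CPM (log2 change -1.46, SE 0.10, edgeR adjusted p = 3.53e-11). Cxcl10, a ligand of CXCR3 on T cells, went from 5.30, 6.13 and 5.55 CPM to 2.82, 2.84 and 2.48 CPM (-1.06, SE 0.088). Ccl2, which attracts monocytes, stood at 37.9, 38.9 and 45.2 CPM in WT and 28.8, 28.0 and 34.1 CPM in KD (-0.42, SE 0.12).

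Weakly expressed members fell too. The neutrophil ligands Cxcl1 and Cxcl5 dropped by 1.47 and 1.70 on the log2 scale, from 3.33 and 1.14 CPM in WT. The membrane-bound chemokines Cx3cl1 and Cxcl16 dropped by 0.71 (SE 0.11) and 0.76 (SE 0.13), and Ccl27a by 0.53 (SE 0.18). Other immune genes were mixed. Il33, an alarmin of endothelial nuclei, fell from 39.7, 40.8 and 35.9 CPM to 27.3, 29.1 and 29.3 CPM, while Icam1, an adhesion molecule for leukocytes, rose from 5.30 ± 0.120 to 7.26 ± 0.293 CPM, and Csf1, the macrophage growth factor, rose by 0.28 (SE 0.028). In the list of leukocyte adhesion and NF-kB genes 3 of 23 rose and 5 fell.

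Antigen presentation genes went both ways. Of 23 tested, 4 rose and 7 fell, and the rises were Calr and Canx, which are also ER chaperones, with Erap1 and Psme2. The class I heavy chain gene H2-K1 went from 199.5, 192.6 and 225.4 CPM to 158.2, 156.5 and 170.7 CPM (log2 change -0.35, SE 0.079), and H2-Q4 and H2-D1 fell by 0.47 and 0.15. B2m, their common light chain, fell by 0.16. The peptide pump subunits Tap1 and Tap2 fell from 2.91 ± 0.181 to 0.936 ± 0.270 CPM and from 3.10 ± 0.123 to 0.963 ± 0.111 CPM. Class I genes are near-identical in sequence and their counts may be split among copies. Of 24 interferon response genes 3 rose and 5 fell, and 3 fell without WT replicate 2, WT replicate 3 or KD replicate 3. Ifitm3, a restriction factor, fell from 37.8 ± 3.87 to 25.4 ± 0.866 CPM.

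Immediate-early genes, which growth factors and stress switch on within minutes through MAP kinases, were more often lower than higher in KD. Of 31 tested with their feedback regulators, 4 rose and 12 fell, with a median of -0.27. The falls make up 38.7%, against 10.4% of all genes and 12.4% at most in any class of expression level. The 4 rises became 2 without KD replicate 1 or 3 and 1 with library totals alone. Egr1, a zinc finger factor, stood at 33.2, 49.98 and 41.5 CPM in WT and at 14.5, 16.7 and 16.8 CPM in KD. The WT libraries were spread but all above KD (log2 change -1.38, SE 0.18, edgeR adjusted p = 0.00600). Ier2 went from 36.4, 44.8 and 40.6 CPM to 17.4, 20.3 and 21.2 CPM (-1.05, SE 0.12). The AP-1 subunits Jun and Junb fell by 0.52 (SE 0.095) and 0.38 (SE 0.033), the MAP kinase phosphatase Dusp1 by 0.48 and the ETS factor Etv4, a marker of FGF signalling, by 1.15. Not every AP-1 gene followed: Fosl2 rose from 177.1, 185.9 and 178.9 CPM to 217.3, 210.9 and 215.5 CPM, and Myc rose by 0.21.

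Some transcription factors of flow and tension were higher. Among 13 Kruppel-like factors 5 rose and 0 fell, a share of 38.5% higher against 11.0% of all genes and 28.6% at 100 CPM or more. With library totals alone 3 rose, and outside chromosomes 4, 9 and 13, 3 of 11 rose. Klf4, which flow induces in endothelium, stood at 38.5, 43.2 and 41.8 CPM in WT and at 67.2, 65.0 and 62.2 CPM in KD (log2 change 0.65, SE 0.058, edgeR adjusted p = 2.64e-08). Klf4 lies on chromosome 4, where the direction of change differed between regions (described further on). Klf5 rose from 20.6 ± 1.68 to 29.7 ± 1.26 CPM and Klf6 from 86.6 ± 9.40 to 119.5 ± 2.29 CPM. Klf2, the other flow factor, was not called (log2 change 0.051). Of 24 targets of YAP and TEAD, the pair that reads cell tension and density, 11 rose and 1 fell (median 0.14), and 6 rose with library totals alone. The 11 make up 45.8%, against 28.6% of genes at 100 CPM or more. Amotl2, a YAP inhibitor induced by YAP, rose from 525.0 ± 26.5 to 656.2 ± 5.82 CPM, Crim1 from 240.0 ± 24.6 to 297.6 ± 2.25 CPM and Ccn2 by 0.21, while the member that fell was Ccn1 (-0.22), a call that is lost under some settings.

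**Figure D4:**
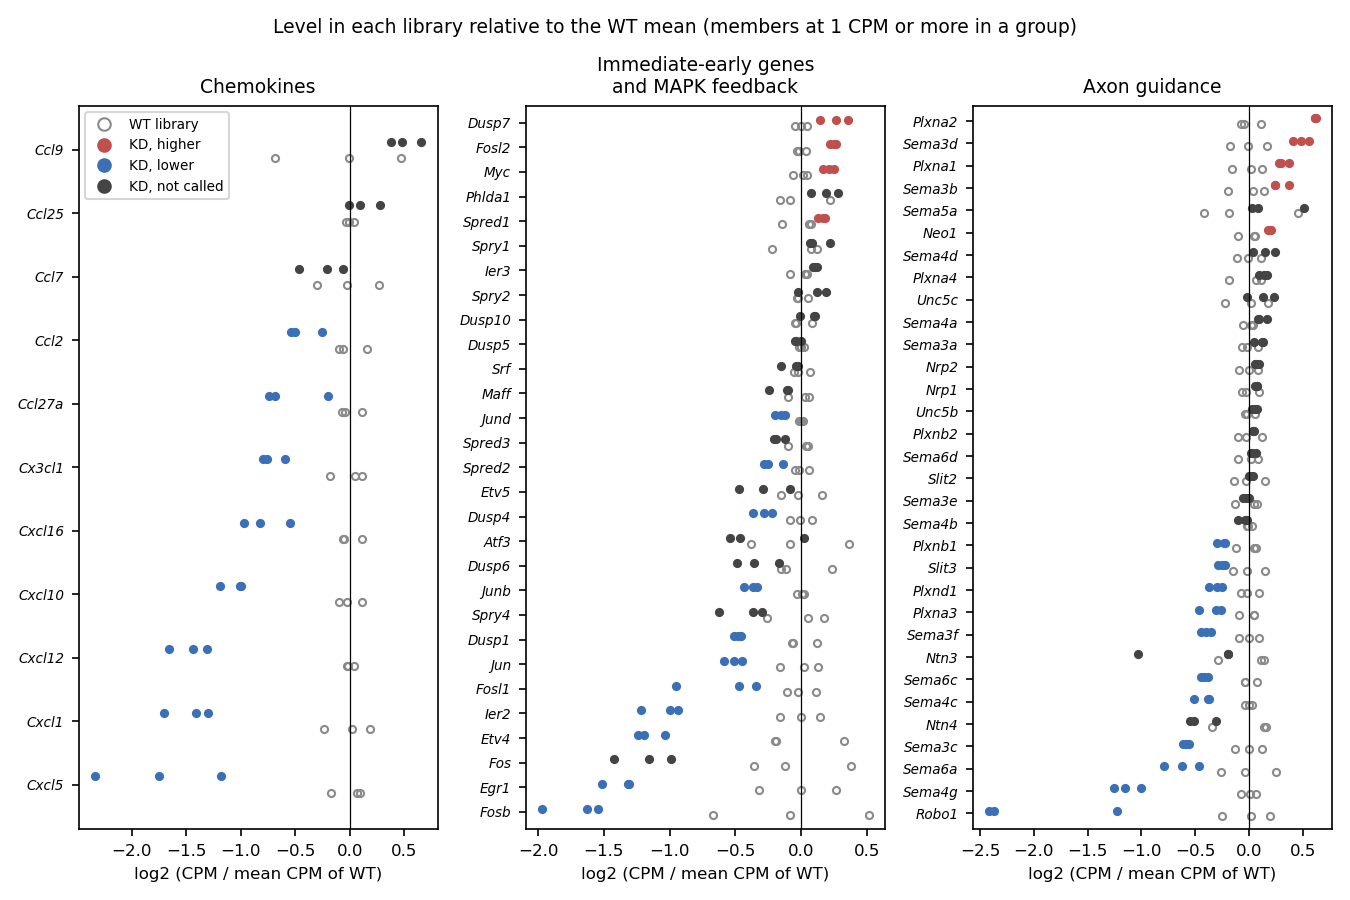
Level of chemokines, immediate-early genes with MAPK feedback genes, and axon guidance genes in every library as the log2 ratio to the WT mean (x axis), for members with at least 1 CPM in a group; open circles are WT libraries and filled circles KD libraries (red, higher; blue, lower; black, not called). Ntn1, at 2 counts or fewer in each KD library, is left out. Most genes at the foot of each panel are blue, among them Cxcl12, Egr1 and Sema4g, and 0 chemokines are red.

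Axon guidance genes, which also steer vessel sprouts, were lower more often than the background. Of 40 tested ligands and receptors 5 rose and 16 fell, with a median of -0.24, and 13 fell without WT replicate 2. The 16 make up 40.0%, against 10.4% of all genes. Sema4g, a membrane semaphorin, stood at 7.78, 8.07 and 7.32 CPM in WT and at 3.85, 3.24 and 3.48 CPM in KD (log2 change -1.13, SE 0.083, edgeR adjusted p = 7.83e-07). Sema3c, a secreted semaphorin that acts on endothelium, went from 128.1, 152.6 and 140.7 CPM to 91.6, 93.3 and 95.2 CPM (-0.59, SE 0.075), and Sema3f from 92.9 ± 5.88 to 70.4 ± 2.24 CPM. The receptor Plxnd1 fell by 0.30 (SE 0.060). Against this direction, Sema3d rose from 66.1, 84.4 and 74.3 CPM to 99.5, 110 and 104.9 CPM (0.48, SE 0.11), and the receptors Plxna2 and Plxna1 rose by 0.61 (SE 0.058) and 0.32 (SE 0.086). The neuropilins Nrp1 and Nrp2 were not called.

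Among 17 ephrins and Eph receptors, which mark arterial and venous borders, 2 rose and 7 fell (median -0.26). The 7 make up 41.2%, against 10.4% of all genes. Efna1 went from 7.80 ± 1.34 to 4.54 ± 0.485 CPM, and Ephb4, the venous receptor, fell by 0.28, whereas Epha4 rose from 10.8 ± 1.81 to 15.4 ± 0.468 CPM. In the VEGF, angiopoietin and endothelial ligand list 1 of 23 rose and 5 fell. The rise was that of Vegfa, the chief angiogenic ligand, from 129.4, 124.5 and 122.1 CPM to 173.2, 168.1 and 171.5 CPM (log2 change 0.45, SE 0.028, edgeR adjusted p = 2.01e-07), alongside the lower levels of its receptors Flt1 and Kdr given above. Vegfc, the lymphatic ligand, fell from 2.04 to 0.769 CPM and Angptl2 by 0.51 (SE 0.12). Of 34 Wnt genes 4 rose and 9 fell (26.5%, against 10.4% of all genes). Tcf7, a transcription factor of the pathway, went from 6.96, 6.71 and 7.27 CPM to 3.20, 3.31 and 2.97 CPM (-1.14, SE 0.057). Wnt11 went from 6.28 ± 0.902 to 3.70 ± 0.0939 CPM.

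Growth factor receptors held some of the largest changes. Igf2r, the receptor that clears IGF2 and carries lysosomal enzymes (chromosome 17, 12682406 to 12769664, minus strand), stood at 36.1, 44.7 and 42.5 CPM in WT and at 3.24, 2.79 and 2.48 CPM in KD. The WT mean was 14.5 times the KD mean (log2 change -3.86, SE 0.14, edgeR adjusted p = 2.79e-15). Fgfr1, a receptor for fibroblast growth factors, went from 10.2, 12.6 and 15.0 CPM to 4.43, 3.52 and 4.81 CPM (-1.56, SE 0.21). Igfbp6 fell by 1.17 (SE 0.080) and Igf1r rose by 0.29 (SE 0.054). The FGF, PDGF and IGF list as a whole had 5 of 29 higher and 6 lower. Of 41 TGF-beta and BMP genes 9 rose and 7 fell. Tgfbr2, the type II receptor, went from 248.6, 274.9 and 268.5 CPM to 359.2, 383.0 and 374.2 CPM (0.49, SE 0.051), and Gdf6, a BMP ligand, from 82.4 ± 3.08 to 122.8 ± 2.17 CPM, while Acvr1b, an activin receptor, fell from 21.1 ± 1.44 to 14.4 ± 0.328 CPM. The count of 9 rises became 15 without WT replicate 2, 5 without KD replicate 1 or WT replicate 3, 4 without KD replicate 3, and 5 with library totals alone.

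Caveolae, the flask-shaped pits of the endothelial membrane, were represented by 9 tested genes, of which 6 rose and 0 fell (median 0.26). The share that rose, 66.7%, compares with 28.6% of genes at 100 CPM or more. Cav1, their main coat protein, stood at 96.5, 98.8 and 91.5 CPM in WT and at 130.5, 136.4 and 134.1 CPM in KD (log2 change 0.48, SE 0.038, edgeR adjusted p = 2.58e-07). Cav2 rose by 0.47 (SE 0.11), the cavins Cavin2, Cavin3 and Cavin1 by 0.32, 0.31 and 0.16, and Pacsin2 by 0.26. Junction genes split, with 6 of 25 higher and 7 lower, and 3 higher with library totals alone. Nectin3, an adhesion molecule, went from 16.3, 15.8 and 15.1 CPM to 27.1, 27.1 and 24.8 CPM (0.74, SE 0.053), whereas Gjc1 (connexin 45) went from 19.2, 20.4 and 19.8 CPM to 9.32, 10.8 and 10.2 CPM (-0.97, SE 0.067). Gja1 (connexin 43) rose by 0.23.

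Genes of the extracellular matrix changed singly more than as a group. Of 18 collagens 5 rose and 3 fell. Col18a1, whose C-terminal fragment is endostatin, went from 27.6, 30.2 and 28.1 CPM to 12.5, 13.3 and 11.7 CPM (log2 change -1.20, SE 0.067, edgeR adjusted p = 6.11e-11), and Col5a3 and Col11a1 rose by 0.43 and 0.35. Among 21 genes of collagen processing 4 rose and 8 fell, and 5 of the 15 outside chromosomes 4, 9 and 13 fell: Adamts2, which trims procollagen, went from 9.91, 9.93 and 9.67 CPM to 3.24, 1.96 and 3.42 CPM (-1.76, SE 0.25), while Lox, which crosslinks collagen, rose from 634.3 ± 56.6 to 861.6 ± 23.1 CPM. Matricellular and elastic fibre genes were lower more often, with 9 of 21 down, 3 up and a median of -0.27. The falls make up 42.9%, against 10.4% of all genes. Tnc (tenascin C) fell from 37.0 ± 3.07 to 22.6 ± 0.517 CPM and Emilin1, an elastic fibre protein, from 7.66 ± 1.03 to 2.89 ± 0.368 CPM, against a rise of Fbln5 (fibulin 5) from 50.03 ± 3.54 to 74.6 ± 1.84 CPM. Heparan sulfate genes went both ways, 7 of 32 higher and 9 lower.

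Glycolysis was the metabolic list with the highest share lower. Of 22 tested genes 2 rose and 10 fell, with a median of -0.12, and 8 of 17 fell outside chromosomes 4, 9 and 13. The 10 make up 45.5%, against 10.4% of all genes. Most falls were small: Pfkl, a phosphofructokinase, went from 188.8, 179.4 and 219.1 CPM to 140.8, 144.0 and 140.7 CPM (log2 change -0.46, SE 0.087, edgeR adjusted p = 7.58e-06), Aldoa fell by 0.23, Eno1 by 0.22, Ldha by 0.20 and Tpi1 by 0.17. Slc2a1, the basal glucose carrier, fell from 100.2 ± 2.07 to 79.3 ± 4.18 CPM, while Slc16a1, a lactate carrier, rose from 254.4 ± 8.78 to 304.2 ± 7.99 CPM. Of 25 hypoxia targets 3 rose and 7 fell, and 5 rose and 5 fell without WT replicate 2. Vegfa and Bhlhe40 (0.37) were among those that rose, and Slc2a1, Pdk1 (-0.21) and Bnip3l (-0.19) among those that fell.

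Sterol genes rose in part. In the cholesterol list 8 of 24 rose (33.3%) and 3 fell (median 0.095), but outside chromosomes 4, 9 and 13, 3 of 18 rose and 3 fell. Idi1 went from 22.2, 25.1 and 19.9 CPM to 30.6, 33.9 and 34.8 CPM (log2 change 0.56, SE 0.11) and Hmgcs1 rose by 0.29. In fatty acid synthesis 4 of 23 rose and 6 fell, and Srebf1, the transcription factor of that pathway, fell from 273.6 ± 14.7 to 216.9 ± 4.72 CPM. Of the NRF2 and antioxidant genes 11 of 37 rose (29.7%) and 8 fell. This share and the 33.3% of the cholesterol list lie near the 28.6% of genes at 100 CPM or more. The count of NRF2 and antioxidant rises became 7 with library totals alone, 6 without KD replicate 2 and 5 without KD replicate 3. Prdx6, a peroxiredoxin with phospholipase activity (chromosome 1, 161240112 to 161251219, minus strand), went from 165.6, 159.0 and 150.2 CPM to 418.8, 417.4 and 408.2 CPM. It had the highest ratio of the antioxidant list, 2.62 times the WT mean (1.39, SE 0.042, edgeR adjusted p = 2.82e-15), and Txnrd1, thioredoxin reductase, rose by 0.30.

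Of 40 tested mitosis genes 13 rose and 1 fell (median 0.098). The share that rose, 32.5%, lies near the 28.6% of genes at 100 CPM or more. This count depended on the processing: 20 rose without WT replicate 2, 8 without KD replicate 3, 3 with library totals alone and 8 of the 32 outside chromosomes 4, 9 and 13. Anln (anillin), which builds the contractile ring, went from 325.4, 389.2 and 334.1 CPM to 502.5, 519.7 and 511.6 CPM (log2 change 0.55, SE 0.082, edgeR adjusted p = 5.14e-07). It lies on chromosome 9, whose genes were higher on the whole. Ect2, its partner in cytokinesis, rose by 0.32 (SE 0.10) and Top2a by 0.20. The replicative helicase moved against this, with Mcm5, Mcm2, Mcm7 and Mcm6 lower by 0.11 to 0.19, and in the replication list 4 of 43 rose and 7 fell. The 7 became 2 to 4 without any single KD library, without WT replicate 1 or with library totals alone.

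Of the 29 tested genes in the list of p53 targets and cell cycle inhibitors 5 rose, 8 fell and 16 were not called. The median was -0.066, and 0.014 without WT replicate 2. Cdkn1a (p21) fell from 12.4, 13.5 and 12.2 CPM to 9.02, 8.72 and 7.54 CPM (log2 change -0.59, SE 0.091, edgeR adjusted p = 9.97e-05). Cdkn2a, which encodes p16 and p19, and Cdkn2c (p18) fell by 0.53 (SE 0.096) and 0.54 (SE 0.063); both lie on chromosome 4. Cdkn1b (p27) rose by 0.17 (edgeR adjusted p = 0.0343). Btg2, an antiproliferative p53 target, fell from 13.5, 15.6 and 12.2 CPM to 6.18, 6.38 and 7.83 CPM (-1.02, SE 0.15). Tigar, which is also a p53 target, rose from 26.0 ± 0.888 to 37.4 ± 0.457 CPM. The 5 rises became 2 without KD replicate 2 or 3, and 2 rose and 4 fell among the 21 genes outside chromosomes 4, 9 and 13.

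Ribosomal proteins and respiratory chain subunits gave counts that rested on single libraries. Of 80 tested cytosolic ribosomal proteins 2 rose and 15 fell (median -0.081). Without WT replicate 2, 41 fell and 2 rose; without KD replicates 1, 2 or 3 the falls numbered 6, 8 and 8, and without WT replicate 1 or OE replicate 2 they numbered 9. Rps6, a target of S6 kinase, went from 496.8, 470.4 and 465.7 CPM to 398.6, 406.6 and 408.1 CPM (log2 change -0.24, SE 0.031). It lies on chromosome 4, and the 2 ribosomal proteins that rose, Rps25 and Rpl4, lie on chromosome 9. Of the 67 outside chromosomes 4, 9 and 13, 0 rose and 11 fell. Of 38 complex I subunits 0 rose and 6 fell, and the falls ranged from 0 without KD replicate 1 to 14 without WT replicate 2, passing 1.5 times in either direction for every omission but those of OE replicate 3 and WT replicate 3. Of 37 subunits of complexes III, IV and ATP synthase 0 rose and 6 fell, with 2 to 13 falls for those 2 omissions and the same reach for every library but OE replicate 3 and WT replicate 1. The medians, -0.063 and -0.056, kept their sign in each of the alternatives run. Mitochondrially encoded genes went the other way, with 3 of 13 higher and 0 lower, and 0 higher without WT replicate 3.

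Among transcription factors, Sox4 fell from 179.1, 188.6 and 159.2 CPM to 120.4, 108.8 and 108.5 CPM (log2 change -0.64, SE 0.088, edgeR adjusted p = 4.76e-07). The ETS, SOX and GATA list had 4 of 26 higher and 7 lower. Of 20 Hox, Meis and Pbx genes 1 rose and 5 fell, and 3 fell without KD replicate 3. Snai1, a repressor of E-cadherin, fell from 12.7 ± 0.296 to 8.83 ± 0.308 CPM while Twist1, also a factor of mesenchymal transition, rose from 16.1 ± 1.34 to 20.1 ± 1.01 CPM. Of 43 BTB zinc finger factors, the family of Zbtb46, 4 rose and 6 fell, near the background in both directions, and 9 rose and 8 fell without WT replicate 2. Zbtb17 (Miz-1), a partner of Myc, and Patz1 fell by 0.42 (SE 0.077) and 0.36 (SE 0.053), more than Zbtb46 itself, and Zbtb41 rose by 0.34 (SE 0.10). Corepressors and histone deacetylases had 0 of 26 higher and 5 lower, with Hdac1 going from 112.2, 105.9 and 107.7 CPM to 78.8, 76.6 and 81.9 CPM (-0.46, SE 0.037) and Rcor2 falling by 0.44. Hdac1 lies on chromosome 4.

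Genes were then grouped by the stem of the symbol, with no list of functions, into 143 families with at least 10 tested genes. The highest share called was that of the semaphorins, with 2 of 18 higher and 9 lower (61.1%, against 21.3% of all genes), and 3 higher and 6 lower without WT replicate 2. The Unc stem, which joins unrelated genes, had 2 of 10 higher and 4 lower, phosphoinositide kinase genes 3 of 12 higher and 4 lower, histone demethylases (Kdm) 3 of 16 higher and 6 lower, Wnt ligands 1 of 11 higher and 5 lower, and MAP kinases and their scaffolds 2 of 15 higher and 6 lower. Without WT replicate 2, 5 Kdm genes and 4 of the MAP kinase group were higher, with 6 lower in each. Kdm5b, which removes methyl groups from histone H3 lysine, fell from 30.5 to 19.6 CPM (log2 change -0.64, SE 0.067). Pik3cb, a catalytic subunit of PI3 kinase, rose from 93.8 to 129.3 CPM, and Pik3cd fell from 12.4 to 8.65 CPM. Unconventional and other myosins, the actin motors, had 7 of 17 higher and 2 lower with a median of 0.26; Myo1c rose from 1022 to 1334 CPM and Myo1e from 49.99 to 67.7 CPM. Annexins, which bind membranes in the presence of calcium, had 4 of 10 higher and 1 lower, with Anxa3 rising from 495.9 to 650.0 CPM. The Hspa stem had 3 of 13 higher and 4 lower, and Dnajb 4 of 10 higher and 1 lower. These families were picked for their share of calls, so the shares describe and test nothing.

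Position on the chromosomes moved with the direction of change. Of 1063 tested genes on chromosome 4, 66 were called higher and 247 lower in KD, with a median log2 change of -0.11. Chromosome 9 showed the opposite, 223 higher and 64 lower of 933 with a median of 0.10, and chromosome 13 had 136 higher and 24 lower of 708 with a median of 0.088. The shift was present in each KD library: the chromosome 4 median relative to the WT mean was -0.090, -0.089 and -0.10 in KD replicates 1, 2 and 3, against 0.0011, 0.0040 and -0.0013 in the WT libraries. Within windows of 20 Mb, the lowest median was -0.18, on chromosome 4 from 120000001 to 140000000, where 9 of 282 genes were called higher and 101 lower, and the highest was 0.16, on chromosome 13 from 100000001 to 120000000. The fall did not span chromosome 4. Its first 3 windows, up to 60000000, had medians of 0.13, 0.069 and 0.040, and the next had -0.029. From 80000001 on the medians lay between -0.18 and -0.13. Without these 3 chromosomes 1434 of 14251 genes were called higher and 1423 lower. That step does not remove every regional shift. On chromosome 1 from 40000001 to 60000000, a window that holds Wdr75 and Nop58, 37 of 116 genes were higher and 5 lower (median 0.14). The number of copies of each chromosome was not measured, and its part in the results was not tested.

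**Figure D5:**
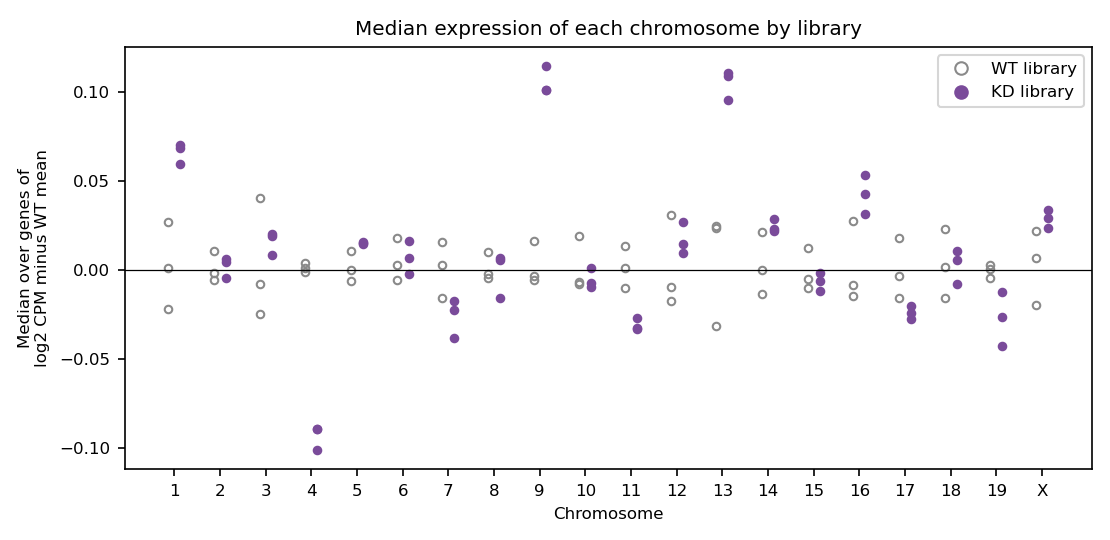
Median over the tested genes of each chromosome of log2 CPM minus the WT mean (y axis) in every library (x axis, chromosome), with open circles for WT and filled circles for KD. The KD libraries lie near -0.1 on chromosome 4 and near 0.1 on chromosomes 9 and 13, and the WT libraries lie between -0.031 and 0.025 there.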

How the data were processed

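RNA-seq counts per gene were deposited by the authors as 1 table for 9 MCEC libraries, 3 each of WT, KD and OE. RNA was extracted with the RNeasy kit, polyadenylated RNA was taken on oligo-dT beads and fragmented by heat, and the libraries, primed with random hexamers, were read in pairs on a NovaSeq-6000, per the labels' protocols. The submitters' processing notes name GRCm38 and mm10. Aligner, counter and strand setting are not given in the sources used here. All 9 columns matched a sample and 0 were not used. The table held 55774 rows for 55487 genes, because 168 genes stood on 455 rows, and each gene was counted once. Coordinates come from GENCODE M21.

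Genes that passed filterByExpr (16955) were fitted with the quasi-likelihood model of edgeR 4.0.16 (robust, TMM factors, R 4.3.3) over all 9 libraries, with group as the only term, and KD was compared with WT at a Benjamini-Hochberg adjusted p under 0.05. The SE of a log2 change was computed from the replicate SDs on the log2 CPM scale, with a prior count of 2. Genes were named if they were Zbtb46, among the 10 largest gains or losses in CPM, or the 2 largest called rises and falls of a list without overlap at 5 CPM or more; markers and the members of short counts were also named. Other genes were chosen after their values were seen. Members, lists and tests were chosen with earlier results of these data known. The fit was checked on simulated data. With 3 libraries against 3, an exact permutation test of a single value cannot go below p = 0.1, so none was used. Same-numbered KD and WT libraries did not deviate together (r = -0.0421, 0.00913 and -0.00579), so they were not treated as pairs. Alternatives were other scaling factors, filters and tools, a minimum fold, a replicate block and leaving out each library; leaving out chromosomes 4, 9 and 13 was added after seeing the data. Some genes are not reported here.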

Additional observations from a re-analysis of the deposited data

How the results depend on the processing

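The counts of genes called depended on scaling and on single libraries. With library totals alone 885 genes were higher and 1588 lower, which takes the share of higher calls from 51.4% to 35.79%; with upper-quartile factors 1548 were higher and 2077 lower (42.7%). The median of all genes moved to -0.03834 and -0.03086 under these scalings. With DESeq2's Wald test 2024 were higher and 1784 lower. Requiring the change to exceed 1.5-fold (glmTreat) left 71 higher and 203 lower (25.91% higher), and Zbtb46, at -0.2836, had an edgeR adjusted p of 1 there. With each library left out in turn, 1249 to 2546 genes were higher and 1288 to 2153 lower, the most without WT replicate 2 and the fewest without KD replicate 2, and the Zbtb46 log2 fold change KD against WT ran from -0.3139 to -0.2414. With the replicate number as a block 1861 were higher and 1713 lower, and 95.3% of the calls without the block were kept. Of the 220 changes of genes named by the rule, 27 held in all 19 alternatives, 164 in all but the minimum fold, and 0 changed direction. The median took the other sign in at least 1 alternative for 24 of 67 lists. Of 57 list counts of 5 or more, 21 moved by over 1.5 times without 1 library, 18 with library totals alone and 56 with the minimum fold. The causes were not tested. Among genes under 1 CPM 6.43% were called, and among those at 100 CPM or more 40.48%.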

Other observations

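A small set of genes was expressed in 1 group and nearly without counts in the other, and was chosen after its values were seen; values are means of 3 libraries. In 8 genes the WT mean was at least 1 CPM and each KD library held 3 counts or fewer. Prkd1, a protein kinase D, stood at 2.98 CPM in WT and 0 in KD, Glul, which makes glutamine, at 2.85 and 0.0234 CPM, and Rab15, a small GTPase of endosomes, at 1.45 and 0.0388 CPM. Gucy1b1, a subunit of the nitric oxide receptor, stood at 1.16 CPM in WT and 0 in KD, Htatip2 at 1.36 and 0.0505 CPM, Patj, a polarity protein, at 1.29 and 0.0304 CPM, and the forkhead factor Foxd1 at 1.12 and 0 CPM. The guidance ligand Ntn1, at 6.58 and 0.0269 CPM, is the eighth gene. In the OE libraries the means were 11.4 CPM for Prkd1, 5.67 for Glul, 2.98 for Rab15, 3.27 for Gucy1b1, 5.09 for Htatip2, 2.91 for Patj, 2.95 for Foxd1 and 21.3 for Ntn1, each above the WT mean; OE and KD were not tested against each other.

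In the reverse direction 13 genes had 3 counts or fewer in each WT library and a mean of 1 CPM or more in KD, of which 6 are protein coding. Nlrp6, an inflammasome sensor, stood at 1.06 CPM in KD and 0.88 CPM in OE. B3gat1, a glucuronyltransferase, stood at 1.05 CPM in KD and 0.0358 CPM in OE, and the olfactory receptor gene Olfr1512 at 2.54 CPM in KD and 2.06 CPM in OE. The other 3 are Scn2b, at 15.3 CPM in KD and 0 in OE, Med12l, at 15.4 and 13.7 CPM, and Actc1, at 7.2 and 5.39 CPM.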
